A study of Homo sapiens with 3 samples.

Results

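The core circadian clock genes CLOCK, ARNTL (now BMAL1), NPAS2, PER1, PER2, PER3, CRY1, CRY2, BHLHE40 and BHLHE41 were examined for peaks of ERRγ, the estrogen-related receptor encoded by ESRRG. ERRγ is a nuclear receptor without a known natural ligand. The genes were chosen by their role, with earlier results of these data known. Every peak that the deposited annotation names for one of them was taken, at any distance. This gave 7 of the 15223 peaks of the list, and they named 4 of the 10 genes. The ERRγ group consisted of 2 chromatin immunoprecipitation libraries, made with a custom antibody from BT-474 cells, an established line of a human breast tumour with amplified ERBB2. The cells grew in regular DMEM and received vehicle, and the labels name no engineered allele; harvest was 90 min after fresh medium was given. The 1 input library came from the same cells and treatment. The deposited peaks form a single merged list with no value per library, so no replicate spread can be given, sequencing depth is unknown, and no test was made. Expression was not measured, so the line could not be checked against its marker genes, and a single harvest time gives no information on daily rhythm.

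The circadian clock is a transcriptional feedback loop. CLOCK, or its paralogue NPAS2, pairs with ARNTL and activates genes through E-boxes, short elements with the letters CACGTG. The PER and CRY proteins are made from such genes and repress the pair, and BHLHE40 (DEC1) and BHLHE41 (DEC2) compete for the same E-boxes. A second loop runs through the nuclear receptors REV-ERB and ROR, which repress and activate ARNTL. ERRs bind DNA as monomers or dimers at the response element TCAAGGTCA, whose closing hexamer, AGGTCA, is recognised by many other nuclear receptors. ERR proteins are best known for control of genes of mitochondrial energy metabolism.

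By role, the 7 peaks were named for activators and E-box competitors and for no PER or CRY gene, while 29.6% of 20037 protein-coding genes had a named peak at any distance. Of the 3 activator genes, 2 were named by 5 peaks, ARNTL by 3 and NPAS2 by 2. Of the 2 competitor genes both were named, by 1 peak each. None of the 5 PER and CRY genes had one, which is not read as a difference, since most protein-coding genes have no named peak. The competitors BHLHE40 and BHLHE41 are repressors as well, so this split follows the role labels used here. A peak list holds only regions above the threshold of the peak calling, so a gene without a peak may still carry a weaker signal.

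**Figure D1:**
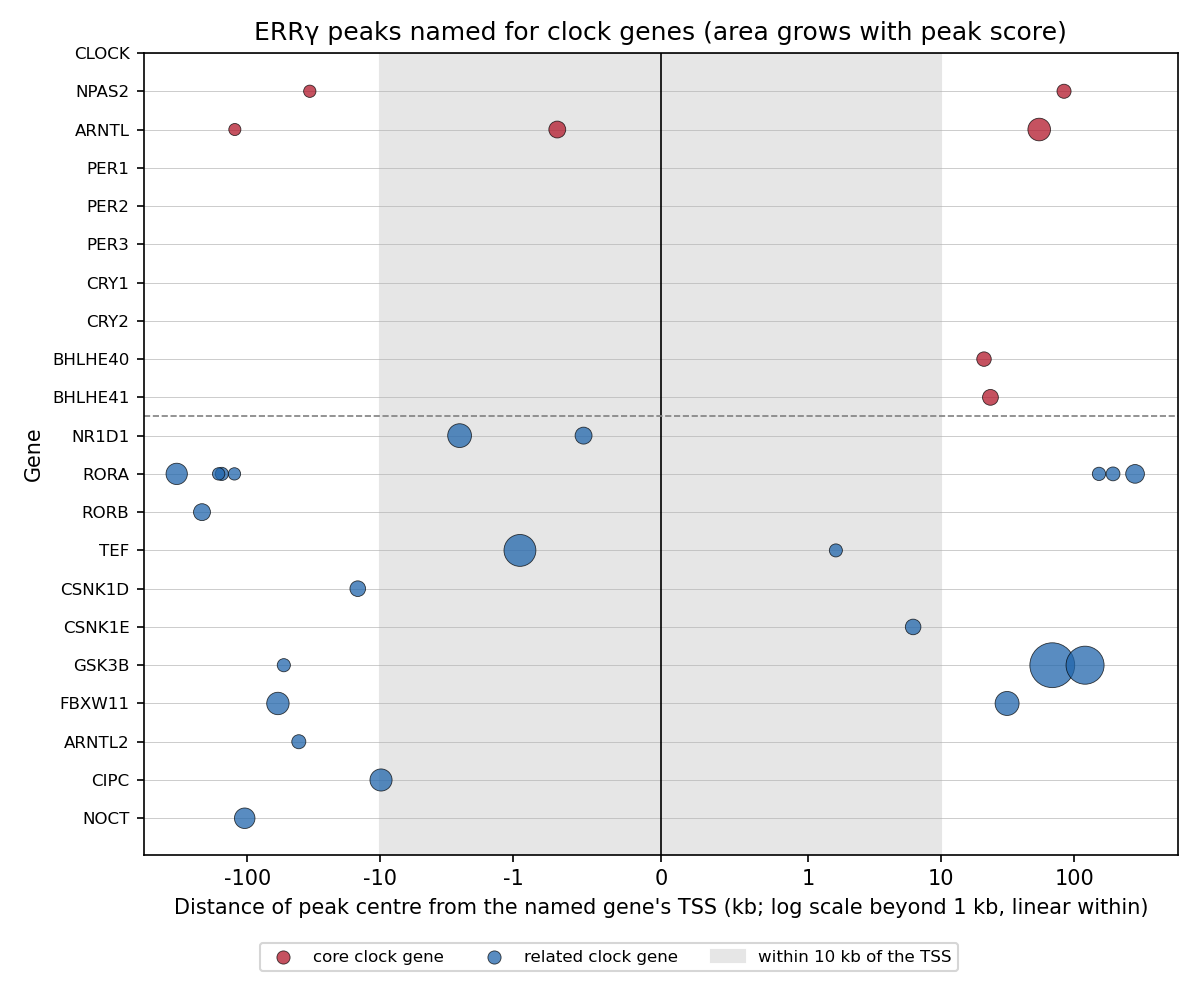
Position of each ERRγ peak named for a clock gene, with the signed distance of the peak centre from the transcription start site (TSS) in kb on the x axis (negative is upstream) and the genes on the y axis. Each point is 1 peak of the merged list and its area grows with the deposited score; related genes without a named peak are not drawn. Of the 7 core clock peaks, shown above the dashed line, 1 lies within 10 kb of a TSS, at ARNTL.

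At promoter distance the core clock genes were near the background of all genes. A gene counts here only where a peak is named for it, so a nearby peak named for a neighbouring gene is left out. Within 10 kb of the TSS, 1 of 10 had a named peak, against 11.5% of 20037 protein-coding genes. Within 1 kb it was the same gene, ARNTL, against 4.16% of all genes. At 50 kb the count was 4 of 10 against 22.6%, at 100 kb 4 of 10 against 26.5%, and at any distance 4 of 10 against 29.6%. With 10 genes a count of 4 is 1 or 2 genes above those background shares, and nothing particular to the clock genes is read from it. With only the upper 50% of the peaks by score, ARNTL was the 1 gene named of 10, against 7.24% of all genes within 10 kb and 20.5% at any distance. Of the upper 10% of the peaks none named a core clock gene, against 1.83% of all genes within 10 kb and 5.84% at any distance.

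**Figure D2:**
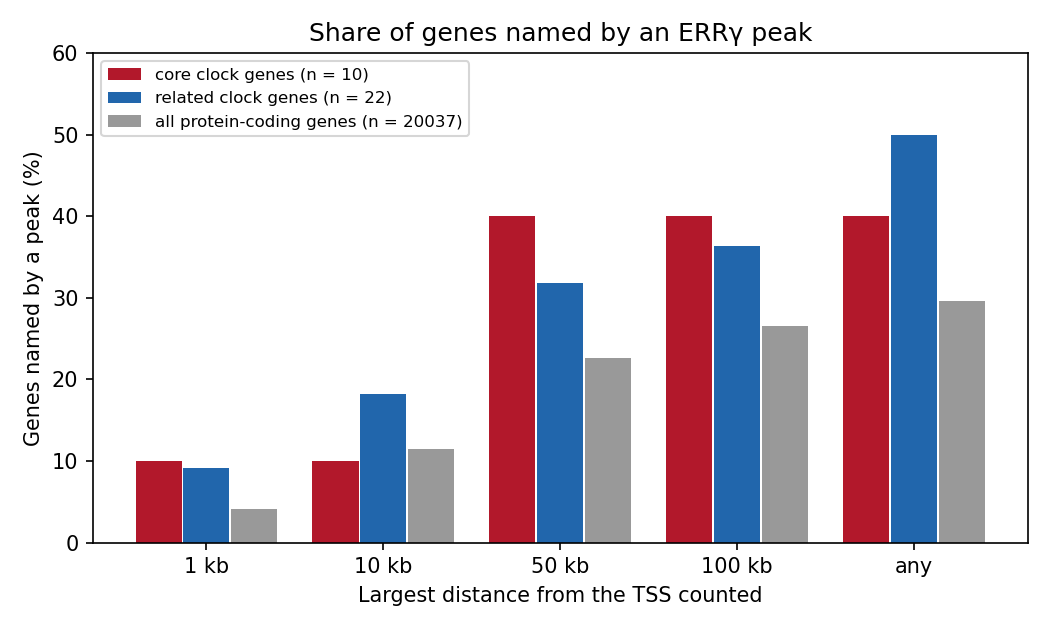
Share of genes named by at least 1 ERRγ peak (y axis, %) as the largest distance counted grows from 1 kb to any (x axis). Bars show the 10 core clock genes, 22 related clock genes and 20037 protein-coding genes. Core clock genes stand at 10% up to 10 kb and at 40% from 50 kb on, while all genes rise from 4.16% to 29.6%.

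ARNTL, the obligate partner of CLOCK and NPAS2, had 3 peaks and was the core clock gene with the most. At least 3 peaks were named for 1419 of 20037 protein-coding genes (7.08%), ARNTL included. The peak at the promoter, chr11:13298047-13299201 on hg19, scored 115.48. Its centre lay 701 bp upstream of the nearest TSS, that of NM_001030273, and its span ran from 1278 to 124 bp upstream. It was annotated as the promoter of a further ARNTL transcript, NM_001030272. The score was above that of 53.6% of all peaks, but among the 917 peaks within 1 kb of any TSS it ranked 573rd, above 37.5% of them. The GC fraction was 0.564 and the CpG fraction 0.0598, above those of 95.1% and 97.8% of all peaks, and the median peak within 1 kb had values of 0.540 and 0.0488.

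The strongest ARNTL peak, and the strongest of any core clock gene, lay inside the gene. It covered chr11:13353353-13354505, in intron 3 of 19 of NM_001178 and 54.6 kb downstream of the TSS, and scored 219.93, above 74.3% of all peaks. The detailed annotation placed its centre in Charlie22a, a DNA transposon of the hAT-Charlie family. Its mean conservation was 0.01 on a scale from 0 to 1, with 5.07% of all peaks lower and a median of 0.07 over the list. The third ARNTL peak, at chr11:13174398-13175507 and 124.4 kb upstream, was intergenic. It scored 51.62, close to the lowest score of 50, and 2.79% of all peaks scored lower.

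RefSeq gives a pair of ARNTL promoter windows, each with 250 bases before and 50 after a start, and they are shown because the promoter peak lies at this gene. Their starts are 1138 bp apart on GRCh38.p14. The windows carry that build and the peak carries hg19, so which bases of the windows the peak covers was not determined. Bases are written 5′ to 3′ on the plus strand, and capitals mark the nuclear receptor hexamer AGGTCA.
ARNTL, downstream start, chr11:13277540-13277839: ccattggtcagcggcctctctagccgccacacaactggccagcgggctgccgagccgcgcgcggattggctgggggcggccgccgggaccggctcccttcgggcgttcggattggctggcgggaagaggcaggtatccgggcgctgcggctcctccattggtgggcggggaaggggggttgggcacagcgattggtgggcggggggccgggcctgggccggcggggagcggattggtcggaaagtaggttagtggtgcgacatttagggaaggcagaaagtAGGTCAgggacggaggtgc
ARNTL, upstream start, chr11:13276402-13276701: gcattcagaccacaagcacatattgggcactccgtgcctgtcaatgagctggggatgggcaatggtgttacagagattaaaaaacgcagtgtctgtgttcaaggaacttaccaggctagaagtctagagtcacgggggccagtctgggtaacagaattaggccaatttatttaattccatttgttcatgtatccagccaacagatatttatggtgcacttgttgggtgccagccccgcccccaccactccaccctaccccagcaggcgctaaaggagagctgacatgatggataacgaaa
The downstream window had a GC fraction of 0.700 and 29 CG pairs and held the hexamer once, starting 32 bases into the transcript. The upstream window had a GC fraction of 0.493 and 6 CG pairs and held no AGGTCA. Neither held TCAAGGTCA, the relaxed form TNAAGGTCA or the E-box CACGTG.

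NPAS2, which can stand in for CLOCK, had 2 peaks of low score, neither near its promoter. The peak at chr2:101520021-101521114 on hg19 lay in intron 1 of 20, 83.95 kb downstream of the TSS, and scored 75.76, above 31.4% of all peaks. The other, at chr2:101402026-101403329, was intergenic, 33.94 kb upstream, and scored 54.04, above 6.79%. The upstream peak had a mean conservation of 0.21, above 86.1% of all peaks and the highest of the 7, while the intronic peak had 0.

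CLOCK had no named peak, but a weak peak lay within its transcript. The peak at chr4:56304304-56305190 was annotated in intron 21 of 22 of the CLOCK transcript NM_004898, and was named for the adjacent gene TMEM165 because that TSS, at 42.66 kb, was nearer. It scored 50.87 and ranked 15000th of 15223. Counted with it, 5 of 10 core clock genes carried a peak by name or within a transcript, against 32% of all protein-coding genes counted in the same way. No other core clock gene gained a peak in this way. Both activators that pair with ARNTL thus had intragenic peaks of below-median score.

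BHLHE40 and BHLHE41, the paralogous repressors also known as DEC1 and DEC2, each had 1 intergenic peak at a similar distance downstream of the TSS. The BHLHE40 peak, chr3:5041261-5042890, was centred at 20.98 kb and scored 80.89, above 35.5% of all peaks. It was the widest of the 7, at 1630 bp. The BHLHE41 peak, chr12:26253972-26255122, was centred at 23.46 kb and scored 99.44, above 46.5%. Both fell below the median score of the list, 106.3. The next peak of the list lay 125.4 kb from the BHLHE41 peak, was named for SSPN and was stronger, with a score of 429.21.

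The 5 genes PER1, PER2, PER3, CRY1 and CRY2 had neither a named peak nor a peak annotated within a transcript. Each peak names only its nearest TSS, so the adjacent protein-coding genes in the RefSeq order were read as well. VAMP2, next to PER1, had 1 peak, at chr17:8061846-8062569 and 4086 bp downstream of the VAMP2 TSS, with a score of 336.83. SLC35C1, next to CRY2, had a peak of 223.04 at 17.03 kb. Beside CRY1, MTERF2 (MTERFD3 in the list) had 2 peaks of 52.31 and 51.60, at 10.92 and 13.38 kb. ABTB3 (BTBD11), on the other side of CRY1, had 6 peaks. The strongest of these scored 558.29 and lay 94.98 kb upstream of an ABTB3 TSS, and another, at 2.081 kb, scored 187.67. VAMP3, next to PER3, had 1 peak, 323.3 kb upstream of its TSS with a score of 69.74. Neither neighbour of PER2, HES6 and TRAF3IP1, had a peak. The list gives no distance from these peaks to the TSS of a PER or CRY gene. Whether any of them lies within 10 kb of such a TSS was therefore not determined.

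Taken as a group, the 7 core clock peaks were of modest score and mostly distal. Scores ran from 51.62 to 219.93 with a median of 80.89, against 106.3 over all peaks, and 2 of 7, both at ARNTL, were in the upper 50%. The score that bounds the upper 10% was 592.1. Of the 7 peaks, 6 lay more than 10 kb from the TSS (85.7%, against 80.5% of all peaks). They comprised 4 intergenic (57.1%, against 51.9%) and 2 intronic peaks (28.6%, against 41.6%) and 1 promoter peak. Widths ran from 1094 to 1630 bp, with a median of 1153 bp against 1220 bp. The median GC fraction was 0.460 against 0.405, and the median conservation 0.04 against 0.07. No pair of them lay closer than 55.3 kb, the distance between the promoter and intron peaks of ARNTL.

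**Figure D3:**
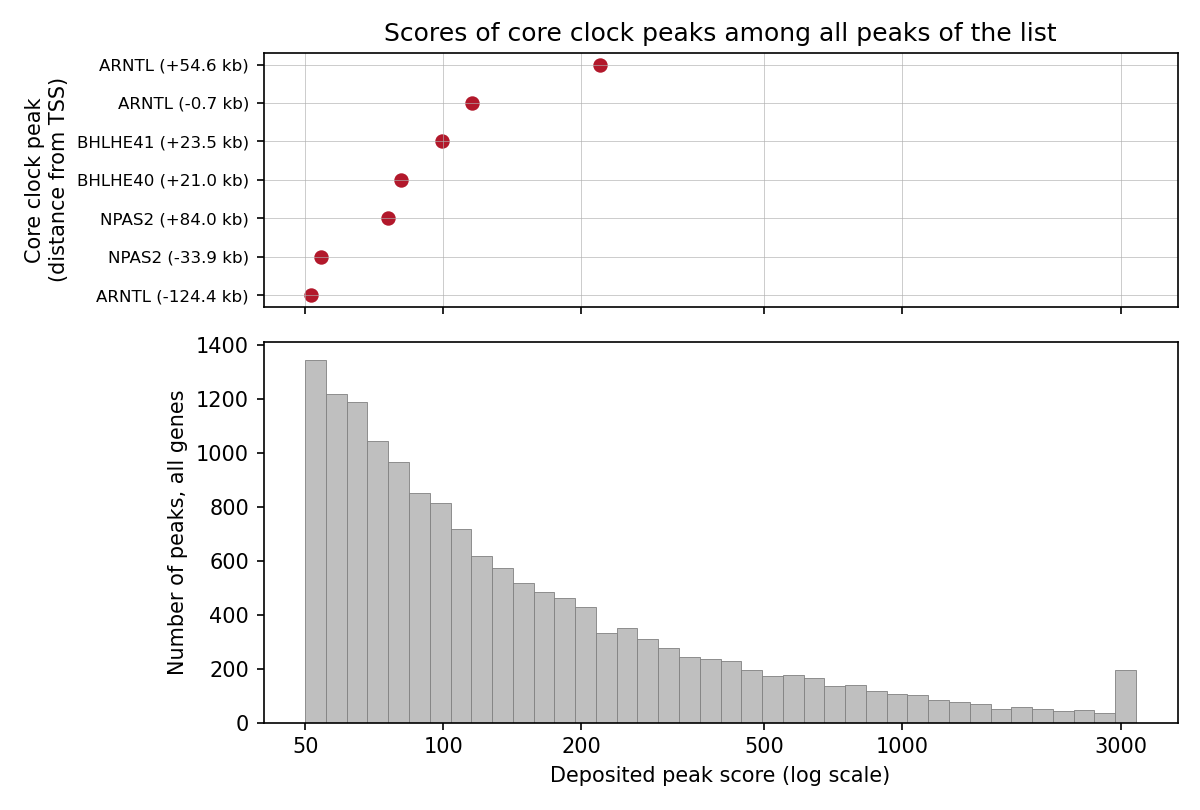
Deposited score (x axis, log scale) of each of the 7 core clock peaks (upper panel, 1 point a peak, labelled with its distance from the TSS) above the number of peaks per score bin over all 15223 peaks (lower panel). The core clock peaks lie between 51.62 and 219.93, in the left part of a distribution that reaches 3227.

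The promoter windows of the core clock genes were searched on both strands for the ERR element and the E-box. All 10 genes matched the RefSeq table of GRCh38.p14, with 14 windows. None held TCAAGGTCA or TNAAGGTCA, which occur in 0.353% and 0.951% of all 35116 windows. The hexamer AGGTCA, contained in both longer forms, was in 4 windows of 3 genes, ARNTL and CRY2 among them, against 13.8% of all windows. The E-box CACGTG was in 3 windows, those of PER1, BHLHE40 and BHLHE41, against 7.26% of all windows. Some of the matches are printed with up to 12 bases on each side, 5′ to 3′ on the strand of the gene, with the match in capitals, because these are the letters that nuclear receptors and the clock activators recognise.
PER1 E-box, window chr17:8152355-8152654, minus strand: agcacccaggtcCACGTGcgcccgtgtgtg
CRY2 hexamer, window chr11:45846868-45847167, plus strand: gtgataataggaAGGTCAgctgtcagtctt
CRY2 hexamer, window chr11:45847225-45847524, plus strand: ttgcggcgtcatAGGTCActgggcgggcta
BHLHE40 E-box, window chr3:4979187-4979486, plus strand: tccaaCACGTGagactcatgtga
BHLHE41 E-box, window chr12:26124988-26125287, minus strand: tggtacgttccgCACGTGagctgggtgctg
With the 3 preceding letters the printed hexamers read AGTAGGTCA at ARNTL, and GGAAGGTCA and CATAGGTCA at CRY2. The remaining hexamer match is not reported here. None of the 3 genes with an E-box had a named peak within 10 kb. Of all genes 11.5% have one, so nothing is read from that count. A match describes the letters of a window only.

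Of 22 further genes of the clock pathway, 4 had a named peak within 10 kb (18.2%, against 11.5% of all genes). At any distance 11 had one (50%, against 29.6%). Among the 5 receptors of the second loop, NR1D1, which encodes REV-ERBα, a repressor of ARNTL, had 2 peaks near its promoter. The one annotated at the promoter, chr17:38256897-38258096, was centred 523 bp upstream and scored 116.41, next to the 115.48 of the ARNTL promoter peak. The other, chr17:38259003-38260004, lay 2530 bp upstream and scored 244.79. A stronger peak, named for MSL1 and scoring 769.41, lay 8.77 kb from the peak at 2530 bp. NR1D1 is on chromosome 17, which carries the ERBB2 amplification of these cells. Copy number was not measured here, so its part in these scores was not tested. The same holds for the peaks named for CSNK1D and for VAMP2, on the same chromosome. NR1D2, the paralogue of NR1D1, had no peak. RORA, an activator of ARNTL, had 7 peaks, all at least 125.3 kb from the TSS, the strongest scoring 193.72. A stronger peak, of 311.77, was annotated in intron 5 of 10 of RORA and named for NARG2. RORB had 1 of 115.90 at 219.8 kb upstream.

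Among the 4 D-box factors, which drive clock output, TEF had the strongest named peak of any listed clock gene within 10 kb. It covered chr22:41776408-41777610, was centred 954 bp upstream and scored 452.96, above 77.0% of the peaks within 1 kb of a TSS. A second TEF peak in intron 1 of 3, at 1610 bp, scored 62.62. DBP and HLF, of the same family, and their antagonist NFIL3 had no peak.

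Of 8 genes for kinases, ubiquitin ligase subunits and other modifiers of clock proteins, CSNK1E was the only one with a named peak within 10 kb. CSNK1E encodes a casein kinase that phosphorylates PER, and its peak of 95.97 lay at 6141 bp in intron 2 of 10. The kinase gene GSK3B had the strongest peaks of the whole set, 910.60 and 651.13, in introns 1 and 2 of 10, at 68.50 and 120.9 kb, and a peak of 178.77 named for NR1I2 lay in intron 10 of 10. FBXW11, a subunit of a ligase for PER, had peaks of 249.19 at 31.30 kb and of 215.57 within a transcript of STK10. CSNK1D had 1 of 96.94 at 14.78 kb upstream. BTRC, USP2 and SIRT1 had none named, although a peak of 449.62 named for MFRP was annotated at the transcript end of USP2. Among the 5 accessory genes, CIPC, an inhibitor of CLOCK, had a peak of 209.54 at 9874 bp upstream, just inside the limit of 10 kb. NOCT had 1 of 178.38 at 104.8 kb upstream, and ARNTL2, the paralogue of ARNTL, had 1 of 75.08 at 41.05 kb upstream, within an intron of STK38L. CIART and TIMELESS had no peak.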

How the data were processed

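The measurement was ChIP-seq of ERRγ in BT-474 cells, with 2 ERRγ libraries and 1 input library of single 50 bp reads, per the labels. The tools, per the submitters' processing notes, were HOMER 3.18, MACS 1.4.1 and BWA 0.5.9, and the build was hg19. For the peak calling threshold, and for whether libraries were pooled, nothing is stated in the labels or headers. Per the file headers, the deposited table gives each peak a score of unknown unit, its nearest TSS with a signed distance, and GC, CpG and conservation values as fraction from 0 to 1. Of all peaks, 158 tie at a score of 3100.

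Peaks were joined to a RefSeq table (GRCh38.p14) by gene identifier, with 99.5% of peaks matched, and annotated transcripts by accession, with 97.7% matched. That table served for symbols and gene order. The background was all protein-coding genes of the nuclear chromosomes. Python 3.11.15 and pandas 2.3.3 were used, and the counting was tested on simulated data. All 10 core genes and, of the further genes, every one with a peak within 10 kb, the leading ones beyond it and those without a peak were named, apart from some that are not reported here, as were CSNK1D, RORB, ARNTL2 and the neighbouring genes, which were added after their values were seen. The genes and lists were chosen with earlier results of these data known. Scores may rise with enrichment and depth, and they were compared only within this list, as values and as ranks.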

Additional observations from a re-analysis of the deposited data

How the results depend on the processing

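The count of 1 core clock gene within 10 kb did not change at 1 kb, without chromosomes 17 and 20, or when peaks below the median score were left out. It was 4 within 50 kb, 2 when peaks within a transcript of the gene also counted, and 0 with the upper 10% of the peaks. The count of 4 core clock genes at any distance was 5 with peaks in transcripts, 1 with the upper 50% of the peaks and 0 with the upper 10%. The 7 peaks remained 7 after merging within 500 bp and became 8 with peaks in transcripts, 2 with the upper 50% and 0 with the upper 10%. The count of 4 related genes within 10 kb was 2 at 1 kb, 7 within 50 kb, 7 with peaks in transcripts, 3 with the upper 50% of the peaks, 0 with the upper 10%, and 3 without chromosomes 17 and 20. The 3 core genes with AGGTCA in a window stayed at 3 with the first listed window of each gene, an alternative chosen after seeing the data. Each change follows from the peaks or windows counted. No paired analysis was possible because the list holds no value per library, and no library could be left out for the same reason. Depth is unknown, so weak peaks such as those of NPAS2 could not be judged for reproducibility.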
